A study of Mus musculus with 9 samples.

Results

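ERK feedback genes are genes that ERK signalling switches on and whose products act back on the same pathway. Here 10 of them were followed through the hearts of transgenic mice: the phosphatase genes Dusp4, Dusp5 and Dusp6, the Sprouty genes Spry1, Spry2 and Spry4, the Sprouty-related genes Spred1 and Spred2, and the ETS transcription factor genes Etv4 and Etv5. They were taken by gene name and are 10 of the 41710 gene names in the deposited tables, with reads summed over the transcripts of each gene. Each gene had reads in all 9 libraries and passed the expression filter, also when the Tg-RKIP libraries were left out of it.

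The libraries were made from hearts of male mice at 8 months of age, all on the FVB background. Tg-RKIP mice (3 libraries) carry a transgene for RKIP, encoded by Pebp1, which the alpha-MHC promoter drives in the myocardium, and they showed symptoms of heart failure. Tg-GRK2 mice (3 libraries) are described as carrying a transgene for the receptor kinase GRK2, whose promoter is not given in the sources used here. The FVB controls (3 libraries) were age-matched nontransgenic males. Pebp1 was raised in Tg-RKIP, with a log2 fold change of 4.81 over FVB (SE 0.019), whereas Grk2 in the libraries labelled Tg-GRK2 had a log2 fold change of 0.054 (SE 0.038, adjusted p = 0.354 in edgeR), so those libraries are named by their label. Myocardial genes were abundant in all libraries, where the 10 cardiomyocyte markers summed to between 48625 and 50870 TPM. TPM is a level that is scaled to transcript length and to the reads of a library. In TPM, Pebp1 was between 15967 and 16371 in Tg-RKIP and between 321 and 330 in FVB. That rise is larger than the log2 fold change given above, so its size depends on the scale.

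Growth factors that bind receptor tyrosine kinases load RAS with GTP, and RAS then activates RAF, MEK and ERK in turn. Active ERK raises the transcription of its own inhibitors. DUSP phosphatases remove the activating phosphates from ERK, Sprouty proteins act between the receptor and RAF, SPRED proteins bring neurofibromin to RAS, and ETV4 and ETV5 carry the signal to other genes. Transcript levels of these genes are therefore widely used as a readout of ERK output, while the phosphorylation of ERK itself was not measured in these libraries.

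Differential expression was tested on read counts with edgeR, and a gene was called at an adjusted p under 0.05 over all 15504 genes tested. In Tg-RKIP against FVB, 8 of the 10 ERK feedback genes were called, 7 higher and 1 lower. Dusp4, Etv5 and Etv4 rose by 4.31, 2.96 and 2.80 times, Dusp6 by 1.85 and Spry1 by 1.49 times. Spry4 and Spred1 rose less, with log2 fold changes of 0.32 and 0.26, and Spred2 fell to 0.859 of the FVB level, a direction that turned when libraries were scaled by size only, whereas Dusp5 and Spry2 did not pass the test. Of all genes tested, 73.9% were called in this comparison, 36.8% higher and 37.1% lower, so that a count of 8 calls in 10 is close to the share among all genes. The members' share of higher calls, 7 of 10, stood beside 36.8%, and 3 members were higher by at least 1 on the log2 scale, where 10.2% of all genes were. The median log2 fold change of the members was 0.45 and that of all genes 0.0085. Normalised CPM (counts scaled by library size and TMM factor) did not overlap between the groups for 8 members, 7 of them higher, while 75.7% of all genes did not overlap and 38.0% were higher without overlap. In whole hearts, fewer cells of a type and less RNA per cell cannot be told apart.

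**Figure D1:**
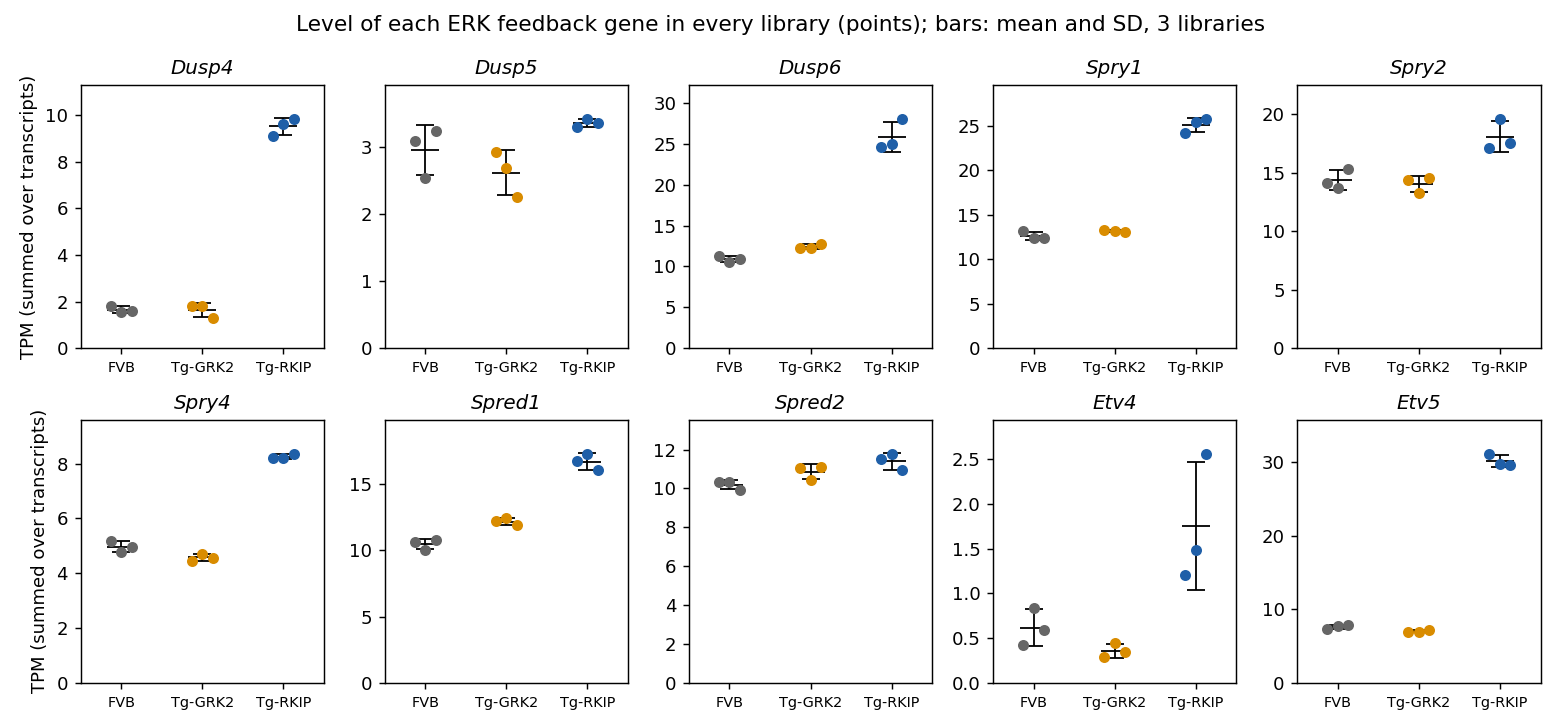
Level of each ERK feedback gene in TPM (y axis, from 0) in the 3 libraries of FVB, Tg-GRK2 and Tg-RKIP (x axis), where points are libraries and bars the mean and SD. By the ratio of the lowest Tg-RKIP library to the highest other library, Dusp4 and Etv5 stood farthest apart. All Tg-RKIP libraries were at 9.11 TPM or more against at most 1.83 for Dusp4. For Etv5 they were at 29.5 or more against at most 7.81.

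The 3 phosphatase genes differed in response. Dusp4, which encodes a nuclear, inducible MAP kinase phosphatase, had 418, 571 and 446 reads in Tg-RKIP, 93, 90 and 75 in Tg-GRK2 and 91, 88 and 78 in FVB. The Tg-RKIP libraries were all high and the other 6 libraries lay together. In TPM the level was 9.52 ± 0.367 (SD, n = 3) in Tg-RKIP against 1.66 ± 0.151 in FVB, and the log2 fold change in normalised counts was 2.11 (SE 0.10, adjusted p = 2.57e-14). Of all genes tested, 2.41% had a higher log2 fold change than Dusp4.

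Dusp6 encodes the cytoplasmic phosphatase that acts selectively on ERK. It had 1049, 1394 and 1061 reads in Tg-RKIP, 574, 542 and 633 in Tg-GRK2 and 491, 521 and 455 in FVB. The groups did not overlap in normalised counts, with Tg-RKIP highest and Tg-GRK2 between the other groups. Its level was 25.8 ± 1.89 TPM in Tg-RKIP and 10.9 ± 0.329 in FVB, and the log2 fold change was 0.88 (SE 0.043, adjusted p = 3.85e-14). Dusp5, a nuclear phosphatase that also prefers ERK, had 137, 183 and 138 reads in Tg-RKIP, 137, 121 and 120 in Tg-GRK2 and 139, 130 and 144 in FVB. Its normalised counts overlapped between the groups, with a log2 fold change of -0.22 (SE 0.11, adjusted p = 0.0828). Without FVB replicate 2, the lowest FVB library, Dusp5 was called lower at -0.33 (adjusted p = 0.0182). Scaled to library size only it was at 0.15 and not called, and in TPM its Tg-RKIP libraries (3.31, 3.42 and 3.37) lay above those of FVB (3.10, 2.54 and 3.24), so no direction is assigned to Dusp5. A model transcript named Gm50394 lies over 547 bases of Dusp5 on the opposite strand, and it had between 0 and 5 reads a library.

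Spry1 had the highest log2 fold change of the Sprouty genes when the reads of all its transcripts were summed. It had 992, 1354 and 1050 reads in Tg-RKIP, 620, 589 and 691 in Tg-GRK2 and 586, 630 and 544 in FVB. All Tg-RKIP libraries lay above all others, at 25.1 ± 0.833 TPM against 12.6 ± 0.437 in FVB, with a log2 fold change of 0.58 (SE 0.044, adjusted p = 9.49e-11). With the most abundant transcript of each gene only, Spry1 was at 0.25 and not called (adjusted p = 0.0816), below Spry4 at 0.30 (adjusted p = 0.000617). A model transcript on the opposite strand, Gm42922, shares 710 bases with Spry1 and had between 1 and 10 reads. Spry4 had 653, 846 and 658 reads in Tg-RKIP, 401, 409 and 465 in Tg-GRK2 and 447, 469 and 422 in FVB. Here too the groups were apart in normalised counts, with Tg-RKIP highest and Tg-GRK2 lowest, and the log2 fold change over FVB was 0.32 (SE 0.049, adjusted p = 5.25e-06).

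Spry2 was the Sprouty gene with the highest TPM in FVB. It had 597, 883 and 606 reads in Tg-RKIP, 567, 505 and 649 in Tg-GRK2 and 536, 590 and 573 in FVB. The normalised counts of the groups overlapped and the log2 fold change over FVB was -0.079 (SE 0.060, adjusted p = 0.240). Without Tg-RKIP replicate 2, the highest library of its group, it was called lower at -0.15 (adjusted p = 0.0392). In TPM, which is scaled to all reads of a library, the 3 Tg-RKIP libraries of Spry2 were at 17.1, 19.6 and 17.5 and the FVB libraries at 14.1, 13.7 and 15.3, so the direction of Spry2 was set by the scaling.

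The SPRED genes went opposite ways in normalised counts. Spred1, whose product recruits neurofibromin to the membrane, had 1674, 2236 and 1578 reads in Tg-RKIP, 1368, 1352 and 1516 in Tg-GRK2 and 1154, 1234 and 1158 in FVB. Tg-RKIP was highest and FVB lowest with no overlap, and the log2 fold change in Tg-RKIP over FVB was 0.26 (SE 0.037, adjusted p = 2.63e-06). Spred2, a related inhibitor of RAS to RAF signalling, had 856, 1130 and 803 reads in Tg-RKIP, 906, 806 and 1021 in Tg-GRK2 and 807, 926 and 776 in FVB. The Tg-RKIP libraries were the lowest in normalised counts, at a log2 fold change of -0.22 (SE 0.043, adjusted p = 0.000118). With scaling to library size only, the sign turned and Spred2 was called higher at 0.16, so no direction is assigned to it.

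Both ETV genes rose. Etv5 had 1981, 2453 and 1865 reads in Tg-RKIP, 502, 485 and 593 in Tg-GRK2 and 504, 607 and 535 in FVB. The level was 30.1 ± 0.834 TPM in Tg-RKIP and 7.58 ± 0.288 in FVB, and the log2 fold change was 1.57 (SE 0.039, adjusted p = 2.04e-19), the smallest adjusted p among the members. Etv4 was read thinly, with 47, 70 and 81 reads in Tg-RKIP, 13, 16 and 17 in Tg-GRK2 and 18, 22 and 15 in FVB. The Tg-RKIP libraries were still all above the others, and its log2 fold change of 1.48 had the largest error of the members (SE 0.25, adjusted p = 1.94e-05). The size of this change depended on the processing, since it was 0.74 in limma on log2(TPM + 1), below Dusp6 at 1.17 there, and 2.39 with the most abundant transcript only.

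**Figure D2:**
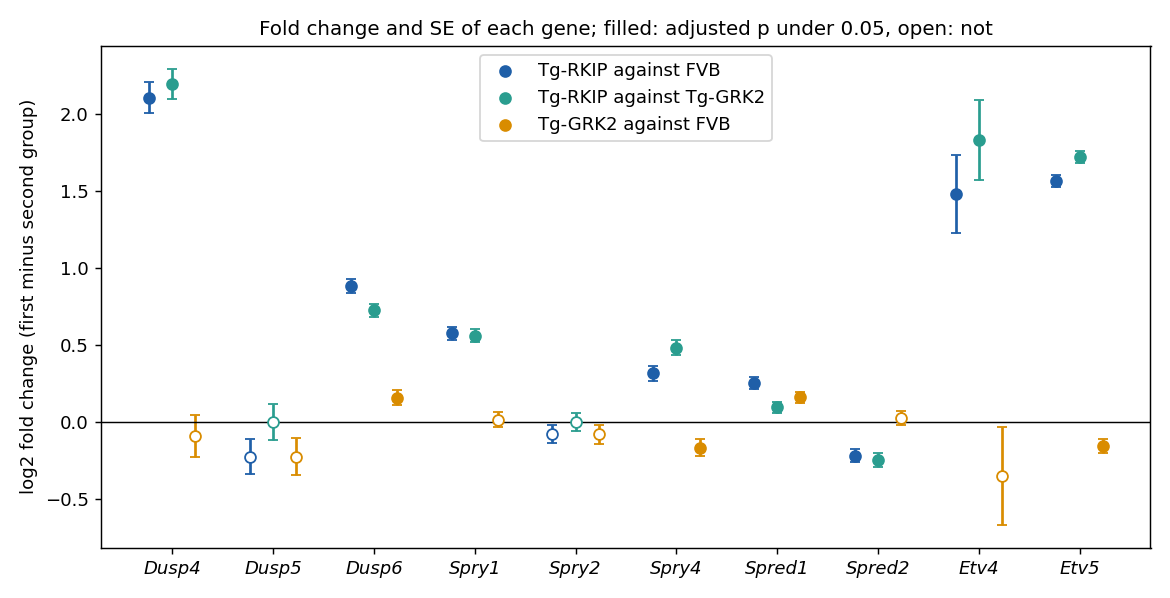
Log2 fold change (y axis) and SE of each ERK feedback gene (x axis) in the 3 comparisons, filled where the adjusted p in edgeR was under 0.05. Dusp4, Etv4 and Etv5 exceeded 1 in both comparisons of Tg-RKIP and all members lay between -0.35 and 0.16 in Tg-GRK2 against FVB.

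The order of the levels changed between the groups. In FVB, Spry2 (14.4 ± 0.837 TPM) and Spry1 (12.6 ± 0.437) led, followed by Dusp6 (10.9), Spred1 (10.5) and Spred2 (10.2), which lay within 1 TPM of each other, then Etv5 (7.58), Spry4 (4.96), Dusp5 (2.96), Dusp4 (1.66) and Etv4 (0.618). In Tg-RKIP, Etv5 led at 30.1 ± 0.834 TPM, ahead of Dusp6 (25.8 ± 1.89) and Spry1 (25.1 ± 0.833), whose means differed by less than the SD of Dusp6. Spry2 (18.1 ± 1.32) and Spred1 (16.7 ± 0.619) came next, then Spred2 (11.4), Dusp4 (9.52), Spry4 (8.26), Dusp5 (3.37) and Etv4 (1.75). In TPM all 10 genes were higher in Tg-RKIP than in FVB with no overlap, Dusp5 by 1.14 times and Spred2 by 1.12 times, opposite to their normalised counts. On that scale 78.8% of all tested genes did not overlap and 64.3% were higher without overlap. An exact two-sided permutation test gave p = 0.1 for each of the 10, the smallest p that 3 libraries against 3 allow.

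All values above depend on how libraries are put on a common scale, and the Tg-RKIP libraries differed from the rest in their makeup. Mitochondrially encoded genes took between 11.5% and 11.8% of the reads in Tg-RKIP, against between 22.9% and 23.2% in FVB and between 22.4% and 22.9% in Tg-GRK2. The TMM factors, which correct for such differences, were between 1.18 and 1.19 in Tg-RKIP and between 0.913 and 0.928 in the other libraries. Without them, scaled to library size only, the median of all genes moved to 0.38 in Tg-RKIP against FVB and 9 members were called higher and 0 lower, beside 62.6% of all genes called higher and 17.1% lower. Scaled to the reads outside mitochondrially encoded genes, the median of all genes was 0.18, 7 members were called higher and 0 lower, beside 49.0% and 26.7% of all genes. The 7 genes called higher above were called higher under both.

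**Figure D3:**
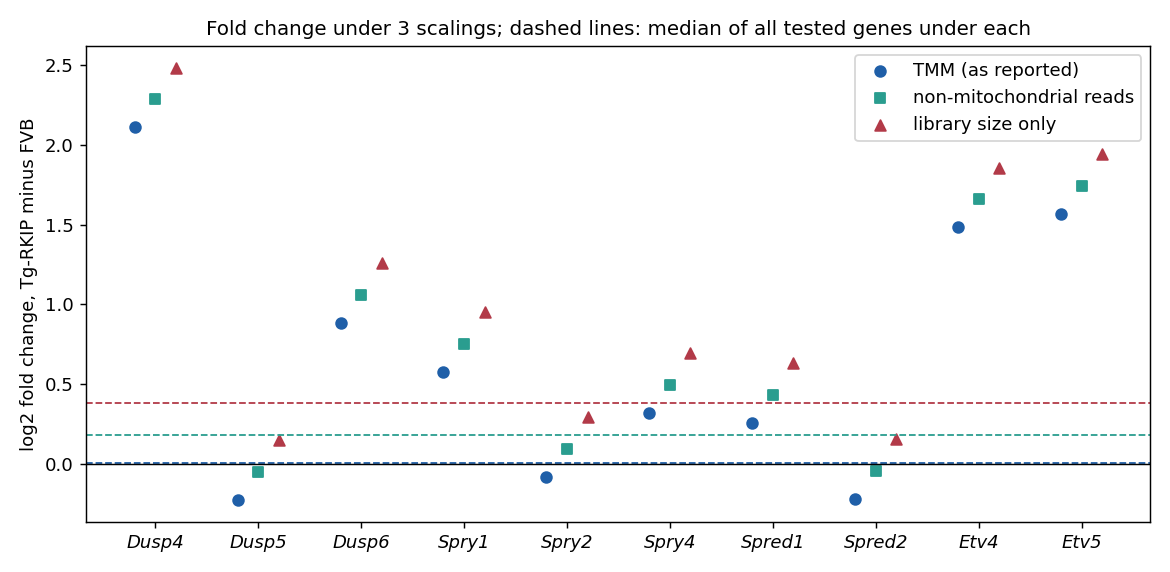
Log2 fold change of each ERK feedback gene in Tg-RKIP against FVB (y axis) under 3 scalings (symbols), with the median of all tested genes under each as a dashed line. The medians were 0.0085, 0.18 and 0.38. A scaling shifts all genes and their median together, and Dusp5, Spry2 and Spred2 lay below 0 with TMM factors and above 0 scaled to library size only.

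In the libraries labelled Tg-GRK2 against FVB, 4 of the 10 genes were called, beside 24.5% of all genes, 12.2% higher and 12.2% lower. None reached a log2 fold change of 1, where 0.929% of all genes were called and higher by that much. Dusp6 was higher at a log2 fold change of 0.16 (SE 0.048, adjusted p = 0.0195) and Spred1 at 0.16 (SE 0.038, adjusted p = 0.00357). Spry4 was lower at -0.17 (SE 0.053, adjusted p = 0.0270) and Etv5 at -0.15 (SE 0.048, adjusted p = 0.0222). The normalised counts of these 4 genes did not overlap between the groups, where 37.1% of all genes did not overlap and 18.5% were higher without overlap. Leaving out single libraries brought the count of calls to as few as 1: it was 1 without Tg-GRK2 replicate 1 or without FVB replicate 3, and 2 without FVB replicate 2. Only Spred1 was called in DESeq2. Dusp4 (-0.088, SE 0.14), Dusp5 (-0.22, SE 0.12), Spry1 (0.015, SE 0.048), Spry2 (-0.079, SE 0.062), Spred2 (0.027, SE 0.044) and Etv4 (-0.35, SE 0.32) did not pass the test.

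Tg-RKIP was also compared with the libraries labelled Tg-GRK2. Here 8 members were called, 7 higher and 1 lower, beside 74.5% of all genes called, 37.9% higher and 36.6% lower. The groups did not overlap for 8 members, 7 of them higher, beside 76.4% and 39.1% of all genes, and 3 members were higher by at least 1 on the log2 scale, beside 9.89%. The log2 fold changes were 2.20 for Dusp4 (SE 0.10), 1.83 for Etv4 (SE 0.26), 1.72 for Etv5 (SE 0.039), 0.73 for Dusp6 (SE 0.042), 0.56 for Spry1 (SE 0.043) and 0.48 for Spry4 (SE 0.049). Etv4 was at 0.99 in limma on log2(TPM + 1), and its call was lost with the most abundant transcript only (1.79, adjusted p = 0.0658). Spred2 was lower at -0.25 (SE 0.043), a sign that scaling to library size turned to 0.12. Spred1 was called at 0.095 (SE 0.036, adjusted p = 0.0226). This call was lost without Tg-RKIP replicate 2 (adjusted p = 0.143) or without Tg-GRK2 replicate 3 (adjusted p = 0.0962). It was also lost in 3 of 12 alternative settings, and the lowest value was 0.078, with the most abundant transcript only. Dusp5 (-0.0012, SE 0.12) and Spry2 (-0.00018, SE 0.060) did not pass the test. This comparison and that of Tg-RKIP with FVB share the Tg-RKIP libraries, so their likeness is not independent evidence.

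The deposited tables also give reads per transcript. Most bases of these transcripts are shared, and the rule by which the authors assigned ambiguous reads is not given in the sources used here, so transcript values are more uncertain than gene sums. Dusp4, Dusp5, Spry2 and Spry4 have 1 transcript each in the tables. Over all 34991 transcripts tested, 34.0% were called in Tg-RKIP against FVB, 3.42% in Tg-GRK2 against FVB and 37.0% in Tg-RKIP against Tg-GRK2.

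For Dusp6 the rise was shared unevenly between transcripts. The full-length Dusp6_3, of 2796 bases in 3 exons, had 716, 981 and 727 reads in Tg-RKIP, 532, 505 and 573 in Tg-GRK2 and 455, 458 and 413 in FVB. It rose by 0.53 on the log2 scale in Tg-RKIP against FVB (SE 0.058, adjusted p = 0.000222), less than the gene sum. The shorter Dusp6_4 joins exon 1 directly to the last exon and leaves out the middle exon of 438 bases (chr10:99100406-99100843 in GRCm39, plus strand), which is 146 whole codons. Dusp6_4 had 314, 394 and 247 reads in Tg-RKIP, 10, 0 and 0 in Tg-GRK2 and 0, 24 and 0 in FVB. It held 27.2% ± 3.46 of the gene's reads in Tg-RKIP, 0.581% ± 1.01 in Tg-GRK2 and 1.54% ± 2.66 in FVB, with every Tg-RKIP library above all others. The transcript passed the expression filter through the Tg-RKIP libraries alone, so these values are a description and no test is given. The sequences at the junctions of both transcripts, shown because a read across them tells the transcripts apart, are given from GENCODE M21, with 30 bases of exon 1 in lower case and 30 bases of the exon that follows in capitals. All of these bases are coding.
Dusp6_3, exon 1 to middle exon: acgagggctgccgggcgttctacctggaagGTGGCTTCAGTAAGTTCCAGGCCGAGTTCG
Dusp6_4, exon 1 to last exon: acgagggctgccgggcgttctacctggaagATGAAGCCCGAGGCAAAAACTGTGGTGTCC
The deposited tables do not count junction reads, so the use of each junction was not measured directly.

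The reads of Spry1 and Spred2 also fell on rarer transcripts. Spry1_2 has 41 exonic bases that Spry1_1 lacks, and Spry1_1 has 11 that Spry1_2 lacks. Spry1_2 had 86, 287 and 270 reads in Tg-RKIP, 0, 95 and 176 in Tg-GRK2 and 0, 0 and 0 in FVB. The libraries of Tg-RKIP and Tg-GRK2 overlapped, with a log2 fold change of 1.03 between them (SE 1.47, adjusted p = 0.649), and no test against FVB is given, since the transcript passed the expression filter through the other groups. Spry1_1 alone had a log2 fold change of 0.30 (SE 0.11, adjusted p = 0.0829), below the 0.58 of the gene sum. It was called scaled to library size only (0.64, adjusted p = 0.00285) and without Tg-GRK2 replicate 1 (adjusted p = 0.0384) or Tg-GRK2 replicate 3 (adjusted p = 0.0305).

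Spred2_2, picked after its values were seen since it holds under 10% of the gene's reads, had 0, 5 and 4 reads in Tg-RKIP, 44, 50 and 67 in Tg-GRK2 and 49, 41 and 30 in FVB. Every Tg-RKIP library was below every other library, a description with no test, and the main transcript Spred2_1 had a log2 fold change over FVB of -0.12 (SE 0.051, adjusted p = 0.116). Spred2_2 lacks exon 3 of Spred2_1, of 81 bases or 27 codons (chr11:19951009-19951089 in GRCm39, plus strand), and it also starts later and ends earlier, so that 1597 exonic bases of Spred2_1 are missing from it. The coding exon that it skips is shown from GENCODE M21 in capitals, with 20 bases of each neighbouring exon in lower case.
Spred2_1, exon 3: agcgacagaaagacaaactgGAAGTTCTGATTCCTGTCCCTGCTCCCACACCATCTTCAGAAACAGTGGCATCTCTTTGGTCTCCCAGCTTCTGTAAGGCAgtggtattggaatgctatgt

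**Figure D4:**
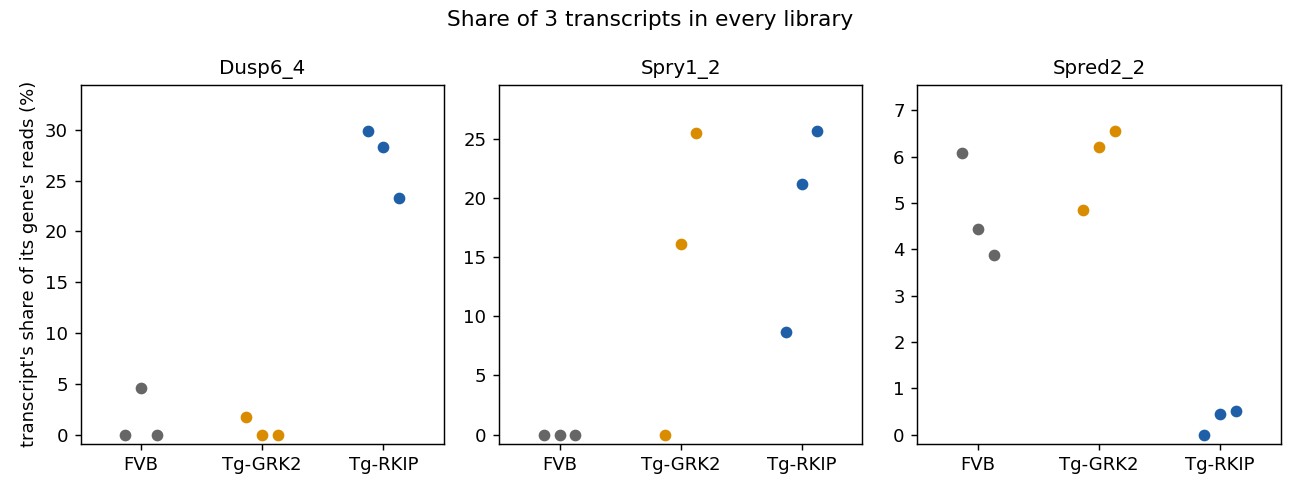
Share of the gene's reads (y axis, in percent, with a scale per panel) held by Dusp6_4, Spry1_2 and Spred2_2 in every library, by group (x axis). Dusp6_4 held between 23.3% and 29.9% in Tg-RKIP and at most 4.61% elsewhere, and Spred2_2 at most 0.498% in Tg-RKIP and at least 3.87% elsewhere.

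Both Etv5 transcripts with reads rose. Etv5_3 had 1620, 1998 and 1499 reads in Tg-RKIP, 416, 354 and 441 in Tg-GRK2 and 373, 454 and 414 in FVB, a log2 fold change over FVB of 1.71 (SE 0.065, adjusted p = 5.15e-07). Etv5_2, which starts at another first exon farther upstream, had 361, 455 and 366 reads in Tg-RKIP, 86, 131 and 152 in Tg-GRK2 and 131, 153 and 121 in FVB, a log2 fold change of 1.22 (SE 0.18, adjusted p = 0.00110). Etv5_3 held 81.2% ± 0.733 of the gene's reads in Tg-RKIP, 75.4% ± 1.77 in FVB and 76.7% ± 5.35 in Tg-GRK2, where 1 library, at 82.9%, lay above every Tg-RKIP library. The reads of Etv4 fell mainly on Etv4_10, with 47, 69 and 74 reads in Tg-RKIP and 18, 0 and 9 in FVB (log2 fold change 2.42, SE 1.08, adjusted p = 0.127). With 1 library left out the change was between 1.84 and 3.40, and it was called without FVB replicate 2 (1.84, adjusted p = 0.0245). In FVB replicate 2 the reads lay on other transcripts instead, 13 of them on Etv4_11, and in FVB replicate 3 Etv4_1 had 6. Spred1_1 held 99.7% of the Spred1 reads in Tg-RKIP and rose by 0.29 (SE 0.042, adjusted p = 0.00117).

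Promoter windows of RefSeq (GRCm38.p6) were matched for 7 of the 10 genes. For Dusp6, Spry1 and Spry2 the window is placed on the annotated start of the transcript with most reads and runs 50 bases past it. The 250 bases before that start are therefore shown for these genes. Dusp6 and Spry1 rose, while Spry2 was not called with TMM factors and its direction was set by the scaling. Capitals mark GGAA on either strand, the core letters that ETS factors such as ETV4 and ETV5 bind.
Dusp6, chr10:99262981-99263230, plus strand: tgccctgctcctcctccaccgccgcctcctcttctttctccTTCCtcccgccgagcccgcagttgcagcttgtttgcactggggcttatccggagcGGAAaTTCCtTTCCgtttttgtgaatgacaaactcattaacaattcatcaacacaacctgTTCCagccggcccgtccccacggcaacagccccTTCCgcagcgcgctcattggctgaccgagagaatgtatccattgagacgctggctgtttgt
Spry1, chr3:37639697-37639946, plus strand: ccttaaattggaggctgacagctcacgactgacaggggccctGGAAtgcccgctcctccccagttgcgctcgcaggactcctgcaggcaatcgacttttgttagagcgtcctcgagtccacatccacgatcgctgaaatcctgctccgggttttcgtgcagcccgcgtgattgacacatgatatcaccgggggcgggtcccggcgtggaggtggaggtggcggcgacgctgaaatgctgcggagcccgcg
Spry2, chr14:105896820-105897069, minus strand: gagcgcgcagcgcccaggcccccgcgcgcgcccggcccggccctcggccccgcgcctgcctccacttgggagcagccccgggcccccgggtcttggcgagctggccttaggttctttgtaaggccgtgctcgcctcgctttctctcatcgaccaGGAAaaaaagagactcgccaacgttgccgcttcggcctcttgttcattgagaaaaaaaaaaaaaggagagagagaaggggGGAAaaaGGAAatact
The whole window, which adds 50 bases after the start, holds GGAA 6 times for Dusp6, 1 time for Spry1 and 5 times for Spry2, of which 3 lie in the printed stretch. Of all 32851 promoter windows 96.0% hold it, with a median of 3. The longer CCGGAA stood in 14.9% of all windows and, of the 8 windows of these genes, in that of Spry2, which was not called, though not within the printed stretch. TGANTCA, the letters bound by AP-1, stood in 7.81% of all windows and in 0 of the 8. The CArG box, the letters bound by serum response factor, stood in 1.63% of all windows and in that of Dusp5. Matches of letters are a description, not binding sites.

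Other genes that ERK signalling is known to raise were read from a list of 15, of which 14 were tested. Lif, a cytokine gene of the interleukin-6 family (0.922 normalised CPM in Tg-RKIP and 0.311 in FVB), passed the expression filter through the Tg-RKIP libraries alone and is left out of the counts. Of the other 13 genes, 8 were higher in Tg-RKIP than in FVB and 2 lower, beside 36.8% and 37.1% of all genes, with a median log2 fold change of 0.35. Phlda1, which encodes an inducible nuclear protein, was highest at 1.42 (SE 0.032, adjusted p = 3.43e-20). Epha4, an ephrin receptor, was lowest at -1.21 (SE 0.036), followed by the immediate early gene Fos at -0.39 (SE 0.10, adjusted p = 0.00156). Fos was not called under either other scaling, and scaled to library size only 11 of the 13 were higher and 1 lower, where 62.6% and 17.1% of all genes were and the median of all genes was 0.38. In Tg-GRK2 against FVB, 2 of the 13 were higher and 3 lower, beside 12.2% and 12.2% of all genes, from the immediate early gene Egr1 at 0.93 (SE 0.055, adjusted p = 3.81e-11) to Phlda1 at -0.39 (SE 0.038, adjusted p = 8.72e-08).

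Further members of the same gene families moved in both directions. Of 10 listed, 8 were tested and all 8 were called, beside 73.9% of all genes, with 2 higher and 6 lower beside 36.8% and 37.1%, and a median of -0.23. Dusp2, a phosphatase of immune cells, and Spred3 were higher, at 0.91 (SE 0.36, adjusted p = 0.0292) and 0.83 (SE 0.31, adjusted p = 0.0208). Both are rare in these hearts, with a mean of 0.337 and 0.565 normalised CPM in FVB. Dusp10 and Dusp16, phosphatases that act mainly on JNK and p38, were lowest at -0.74 (SE 0.084) and -0.53 (SE 0.038). Dusp7, Dusp1, Etv1 and Dusp8 were lower too, at -0.30 (SE 0.040), -0.23 (SE 0.036), -0.23 (SE 0.044) and -0.11 (SE 0.036). Scaled to library size only, 5 of the 8 were higher and 2 lower, beside 62.6% and 17.1% of all genes, with Dusp10 and Dusp16 still lower.

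Of the cascade itself and its partners, 23 of 24 genes were tested, and 7 were higher and 13 lower, beside 36.8% and 37.1% of all genes, with a median of -0.13. The GTPase gene Rras (0.89, SE 0.045) and Mapk3, which encodes ERK1 (0.73, SE 0.037), were highest. Ptpn11, which encodes the phosphatase SHP2 (-0.75, SE 0.022), and the exchange factor gene Sos2 (-0.65, SE 0.037) were lowest. These 4 kept their direction and their call under both other scalings, while the counts turned to 13 higher and 5 lower when scaled to library size only, beside 62.6% and 17.1% of all genes.

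Of 24 growth factor receptors and ligands, 22 were tested, and 11 were higher and 10 lower, beside the same 36.8% and 37.1%, with a median of 0.018. Fgfr2 and Fgfr1, which encode FGF receptors, were highest at 2.43 (SE 0.12) and 0.96 (SE 0.034). The ligand genes Egf and Fgf16 were lowest at -2.25 (SE 0.096) and -1.58 (SE 0.062). All 4 had the same direction and call under both other scalings, and scaled to library size only 12 of the 22 were higher and 8 lower, beside 62.6% and 17.1% of all genes.

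**Figure D5:**
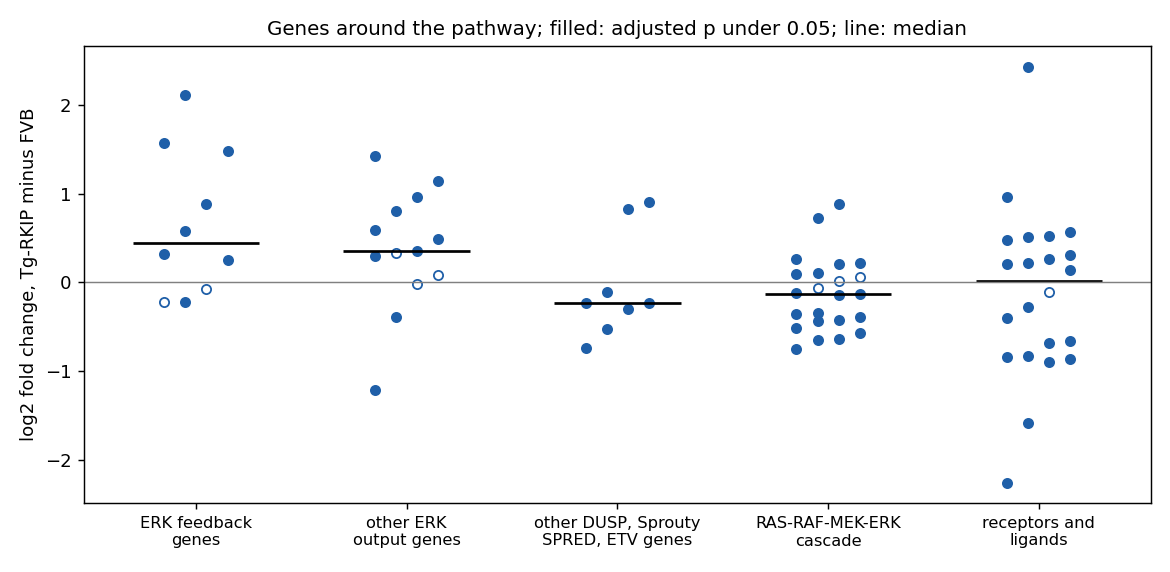
Log2 fold change in Tg-RKIP against FVB (y axis) of each tested gene of 5 lists (x axis), Lif left out, filled where the adjusted p was under 0.05, with the list's median as a line. The medians of the ERK feedback genes (0.45) and of the other ERK output genes (0.35) lay above those of the other 3 lists (-0.23, -0.13 and 0.018).

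Transcript levels of cell type markers differed between the groups as well, while numbers of cells were not measured. In Tg-RKIP against FVB, 9 of 10 fibroblast markers were higher and 1 lower, beside 36.8% and 37.1% of all genes, with Col1a1 at a log2 fold change of 2.55 and Ddr2 at -0.22, and their summed level was between 4511 and 4565 TPM against between 1885 and 1918. Of 10 macrophage markers 9 were higher and 1 lower, from Cd68 at 1.20 to Cd163 at -0.15, with sums between 845 and 850 TPM against between 330 and 341. Smooth muscle and pericyte markers (6 higher, 4 lower, from Cnn1 at 1.32 to Abcc9 at -1.53) summed to between 2313 and 2343 TPM against between 1138 and 1154. Des, which heart muscle cells express as well, set most of that sum, and without it the sums were between 546 and 556 against between 413 and 416 TPM, with Myh11, Rgs5 and Kcnj8 lower in normalised counts beside Abcc9. Endothelial markers (6 higher, 4 lower, from Emcn at 0.84 to Kdr at -0.83) summed to between 1522 and 1531 TPM against between 1098 and 1134, of which Fabp4, also an adipocyte gene, held between 845 and 869 against between 587 and 617. Of the cardiomyocyte markers 1 was higher and 8 lower, from Mybpc3 at 0.26 to Ryr2 at -2.07, and their sum was between 49269 and 50268 TPM against between 50570 and 50870. Scaled to library size only, 10 of 10 fibroblast and 10 of 10 macrophage markers were higher, beside 62.6% of all genes. The cardiomyocyte markers then split into 4 higher and 6 lower. In Tg-GRK2 against FVB, 12.2% of all genes were higher and 12.2% lower. Fibroblast markers there had 7 of 10 higher and 0 lower, and macrophage and adipocyte markers each had 5 higher and 1 lower. Endothelial markers had 1 higher and 5 lower, smooth muscle and pericyte markers 2 and 3, and cardiomyocyte markers 4 and 6.

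Genes of tissues that a dissected heart can carry along also differed. Of 10 cartilage markers, 8 passed the expression filter, 3 of them (Acan, Col2a1 and Col9a1) through the Tg-RKIP libraries alone, so no count of calls is given. The 10 markers summed in Tg-RKIP to between 370 and 377 TPM against between 18.5 and 19.8 in FVB and between 17.1 and 18.7 in Tg-GRK2. Col2a1, the main collagen of cartilage, was at 84.1 normalised CPM in Tg-RKIP and 0.053 in FVB, and Cnmd was not called at -0.25. Airway and alveolar markers summed to between 101 and 107 TPM in Tg-RKIP, between 200 and 210 in Tg-GRK2 and between 6.54 and 8.18 in FVB, where 6 of the 12, Scgb1a1, Scgb3a2, Bpifa1, Sftpa1, Sftpc and Sftpd, had 0 reads in every library. Scgb1a1 held between 48.7 and 50.1 TPM of the sum in Tg-RKIP and between 125 and 132 in Tg-GRK2. Sftpa1, Sftpb, Sftpc and Nkx2-1 reached the CPM cut of the filter in 0 libraries of any group. Sftpd reached it in 1 library of Tg-RKIP and 1 of Tg-GRK2, and Abca3 in all 9 libraries. The 6 that passed the filter included Scgb1a1, Scgb3a2, Scgb3a1 and Bpifa1, which passed through the transgenic groups. No count of calls is therefore given here either. In Tg-RKIP against FVB, 9 of 10 adipocyte markers were higher and 1 lower, beside 36.8% and 37.1% of all genes. They ran from Cfd at 3.12 to Lpl at -0.99. Their sum was lower, between 1560 and 1562 TPM against between 1987 and 2011. Lpl, which heart muscle also expresses, set that sum, and without it the sums were between 249 and 254 TPM against between 48.1 and 51.0. The part of these cell types in the levels of the ERK feedback genes was not tested.

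For the 3 members with the largest change, the genes whose profile over the 9 libraries was most alike were found by the distance between centred log2 values. For Dusp4, Panx1 and Gdf10 were among them (distances 0.38 and 0.43). For Etv5 they were S100a6, Aldh1a1 and Myl9 (0.097, 0.13 and 0.16). For Etv4 they were 2310030G06Rik, Sv2b and Sox9 (0.59, 0.60 and 0.61), all farther away, and Sox9 is also on the list of cartilage markers. The genes named had log2 fold changes between 1.13 and 2.17 in Tg-RKIP against FVB, which follows from how they were picked.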

How the data were processed

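RNA of hearts was sequenced in 3 libraries per group, with between 25458108 and 33447654 reads assigned per library. Whole-number read counts per transcript, not normalised, were deposited, as were TPM values per transcript, which equal the TPM recomputed from counts and lengths to within 5.50e-06. The submitters' processing notes name the build GRCm39. The aligner and counter are not given in the sources used here. Counts and TPM were summed by gene name. The members and lists were chosen with earlier results of these data known. Counts were tested with edgeR 4.0.16 in R 4.3.3 (TMM, filterByExpr, glmQLFit and glmQLFTest, a mean per group over all 9 libraries), adjusted by Benjamini-Hochberg over 15504 genes, or 34991 transcripts. The common coefficient of variation was 2.86%. Alternatives used DESeq2 1.42.0, limma 3.58.1 on log2(TPM + 0.1) and log2(TPM + 1), other scalings and filters, glmTreat, the replicate number as a block and each library left out. Named were the 10 members, their transcripts with at least 10% of the gene's reads in a group, Pebp1 and Grk2, the 2 highest and 2 lowest called genes of each pathway list, the extremes of each marker list, and the 3 genes nearest in profile (Euclidean distance of centred log2 CPM) to each of the 3 members with the largest change, of which 1 is not reported here. Dusp1, Dusp7, Dusp8 and Etv1 are named besides. Libraries within a group differed by more than sampling noise (variance ratio between 1.37 and 1.53). The labels number replicates within each group, and the paper gives 3 hearts per group for Tg-RKIP and FVB. The p-values are taken to measure the spread between hearts, which for the libraries labelled Tg-GRK2 is an assumption. Sequences came from RefSeq (GRCm38.p6) and GENCODE M21, matched by symbol or transcript identifier.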

Additional observations from a re-analysis of the deposited data

How the results depend on the processing

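The 7 genes called higher in Tg-RKIP against FVB kept their direction under every alternative run. With the most abundant transcript only, Spry1 was no longer called (0.25, adjusted p = 0.0816) and Dusp6 was at 0.48. The number of members called was between 8 and 9 with each library left out, beside 11012 to 11570 genes in all. Tested against a minimum fold of 1.5, the calls fell to 4 of 10 members and 3665 genes in Tg-RKIP against FVB, 0 members and 155 genes in Tg-GRK2 against FVB, and 4 members and 3867 genes in Tg-RKIP against Tg-GRK2. The 4 were Dusp4, Dusp6, Etv4 and Etv5 each time. In Tg-GRK2 against FVB, DESeq2 called 1 member (3084 genes in all), limma 2 with either pseudocount (2587 and 2554 genes), and the most abundant transcript alone 1 (1660 genes in all), and the count was between 1 and 4 with each library left out (3114 to 3773 genes). The replicate number as a block gave 8, 4 and 8 members and 11401, 3660 and 11491 genes in the 3 comparisons, and changed no call of a member. The numbers do not pair the libraries, since correlations of same-numbered libraries were between -0.042 and 0.045.

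Signs turned with the scaling. In Tg-RKIP against FVB, Spry2 was at 0.30 scaled to library size only and at 0.33 and 0.31 in limma, Spred2 at 0.16, 0.16 and 0.15, and Dusp5, not called, at 0.15, 0.19 and 0.14. Against Tg-GRK2, Dusp5 was at 0.36, 0.35 and 0.27, Spry2 at 0.36, 0.36 and 0.34 and at 0.17 scaled to reads outside mitochondrially encoded genes, and Spred2 at 0.12, 0.070 and 0.065. Scaled to library size, an alternative added after seeing the data for transcripts, Spred2_1 was at 0.22 and Spry2_1 at 0.29. Depth limits Etv4, with at most 22 reads in any FVB library, and the rare transcripts.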
